A study of Mus musculus with 6 samples.

Results

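CpG sites near a transcription start site (TSS) with few other measured CpG sites around them were described in cultured mouse spermatogonia. A site was taken when it lay on an autosome, no more than 200 bp from the closest TSS, was read at least 10 times in each of 6 libraries, and had at most 2 other rows of the deposited table within 100 bp. These limits gave 1644 sites in 1130 genes on 19 autosomes, of 2268080 sites in the table and 681804 sites with at least 10 reads in every library. They are called CpG-sparse promoter sites here. The remaining 170704 autosomal sites within 200 bp of a TSS, which had more than 2 other rows within 100 bp and the same read minimum, are called CpG-dense promoter sites. The sparse sites made up 0.954% of the 172348 promoter sites.

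GS cells are spermatogonia kept in culture, spermatogonial stem cells among them. They carried the genotype DBA/Tg14(act-EGFP-OsbY01), an EGFP transgene under an actin promoter that was moved from C57BL6 into DBA/2 mice, and they were grown on mouse embryonic fibroblast feeders. Both groups shared this genotype and were frozen for 6 months, the Space group on the International Space Station (ISS) and the Ground group on Earth, and DNA was taken after thawing and passaging. Each group had 3 replicates, and the labels do not say whether these were separate cultures, so the p-values measure the spread between these samples only. Reduced representation bisulfite sequencing (RRBS) reads fragments cut at CCGG after bisulfite treatment, and the methylation level of a site is the percent of its reads that stayed methylated.

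In mammals, DNA methylation is placed mainly on cytosines followed by guanine. Promoters rich in such CpG sites (CpG islands) are usually kept free of methylation whether or not the gene is active, whereas promoters with few CpG sites are often methylated in cells that do not use the gene. Germ cells erase most methylation in the embryo and set it again, in the male line before birth, so spermatogonia already carry a largely methylated genome outside CpG islands.

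The promoter sequences below show examples of each level class and of a dense promoter. For each gene the 250 bases before the TSS are given 5′ to 3′ in the direction of the gene, with every CG in capitals, from RefSeq (GRCm38.p6). They were taken from the deepest read upstream sites of each level class in protein-coding genes in which all table rows of the window fell on a CG at the same distance from the TSS. *Lactbl1* (chr4:136622371-136622620, plus strand) and *Spaar* (chr4:43729784-43730033, plus strand) held highly methylated sparse sites, and *Spaar* encodes a small polypeptide of amino acid signaling. *Madcam1* (chr10:79664309-79664558, plus strand), an adhesion molecule of gut vessels, and *Ccdc110* (chr8:45934369-45934618, plus strand), a coiled-coil protein gene, held intermediate sites. *Gnb1l* (chr16:18498463-18498712, plus strand), a WD repeat protein gene, held an unmethylated sparse site, and *Etnk2* (chr1:133363322-133363571, plus strand), an ethanolamine kinase gene, held CpG-dense sites only.

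Lactbl1: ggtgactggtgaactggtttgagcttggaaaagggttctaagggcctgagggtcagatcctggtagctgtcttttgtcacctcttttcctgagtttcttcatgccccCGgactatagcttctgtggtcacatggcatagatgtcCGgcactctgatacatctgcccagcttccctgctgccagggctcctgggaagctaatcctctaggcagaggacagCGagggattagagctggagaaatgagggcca
Spaar: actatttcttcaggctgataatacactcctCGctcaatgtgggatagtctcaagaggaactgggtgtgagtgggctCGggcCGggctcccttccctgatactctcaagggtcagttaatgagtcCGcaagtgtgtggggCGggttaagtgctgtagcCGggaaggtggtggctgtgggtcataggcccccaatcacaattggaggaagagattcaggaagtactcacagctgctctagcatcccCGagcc
Madcam1: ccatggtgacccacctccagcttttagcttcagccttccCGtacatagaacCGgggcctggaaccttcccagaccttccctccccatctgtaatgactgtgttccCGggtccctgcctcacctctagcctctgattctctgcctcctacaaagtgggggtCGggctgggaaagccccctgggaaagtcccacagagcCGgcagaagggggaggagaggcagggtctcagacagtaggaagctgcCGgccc
Ccdc110: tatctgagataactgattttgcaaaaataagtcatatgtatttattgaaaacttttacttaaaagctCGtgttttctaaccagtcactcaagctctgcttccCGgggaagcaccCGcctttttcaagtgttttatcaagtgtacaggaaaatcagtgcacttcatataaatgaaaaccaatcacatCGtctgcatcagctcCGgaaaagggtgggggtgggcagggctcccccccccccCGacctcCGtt
Gnb1l: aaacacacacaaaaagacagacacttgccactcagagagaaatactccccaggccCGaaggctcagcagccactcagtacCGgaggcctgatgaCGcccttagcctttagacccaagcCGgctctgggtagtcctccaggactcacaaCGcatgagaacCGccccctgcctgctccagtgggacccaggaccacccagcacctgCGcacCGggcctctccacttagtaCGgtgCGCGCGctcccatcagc
Etnk2: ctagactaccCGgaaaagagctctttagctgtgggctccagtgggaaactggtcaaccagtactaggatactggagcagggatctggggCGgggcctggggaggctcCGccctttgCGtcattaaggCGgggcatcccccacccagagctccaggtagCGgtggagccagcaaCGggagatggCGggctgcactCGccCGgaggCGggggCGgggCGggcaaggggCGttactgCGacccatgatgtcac

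Counted from the 5′ end, the measured site was CG 3 of 3 in *Lactbl1*, CG 4 of 7 in *Spaar*, CG 4 of 6 in *Madcam1*, CG 3 of 7 in *Ccdc110*, CG 3 of 12 in *Gnb1l* and CG 12 of 15 in *Etnk2*. The *Lactbl1* site was read as methylated at 100% in each of the Space libraries and at 100%, 100% and 92.9% in Ground replicates 1 to 3. The *Spaar* site had 91.7%, 96.8% and 93.1% in Space and 82.6%, 82.4% and 92.9% in Ground. At *Madcam1* the levels were 71.1%, 55.6% and 50% in Space and 55.8%, 62.5% and 60.6% in Ground. The *Gnb1l* site was at or under 2.67% in every library, and the *Etnk2* site was at or under 1.27%. In each of these promoters the Space and Ground levels overlapped. The rule counts rows of the table and not CpG sites of the genome, since RRBS reads only some of them. The measured *Spaar* site had 5 other CG within 100 bases in the sequence and 1 other row in the table, *Ccdc110* had 4 and 1, and *Madcam1* had 3 and 1. The same count over all sites was not made, because only 536 (74.7%) of the 718 protein-coding genes with sparse sites were matched to a promoter sequence by symbol. Of 578 sites compared with a matched sequence, only 205 (35.5%) fell on a CG at the same distance from the TSS. The measured CG of each printed promoter was placed by that distance, in windows chosen because their rows fell on a CG.

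Most CpG-sparse promoter sites were unmethylated, and a smaller class was almost fully methylated. By the mean level over the 6 libraries, 1180 sites (71.8%) in 819 genes were low (under 20%), 152 sites (9.25%) in 115 genes were intermediate (20% to 80%) and 312 sites (19%) in 219 genes were high (over 80%). Among the CpG-dense promoter sites 99.6% were low, 0.205% were intermediate and 0.192% were high. The extremes held most sparse sites, with 60.5% of them under 5% and 12.2% over 95%. No methylated read was found in any library at 65 sites in 51 genes. These 65 sites had 74 to 363 reads over the 6 libraries, which allows a level of up to 0.826% to 4.05% (3 counts of the total, counting error only). All reads were methylated in every library at 6 sites in 6 genes.

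**Figure D1:**
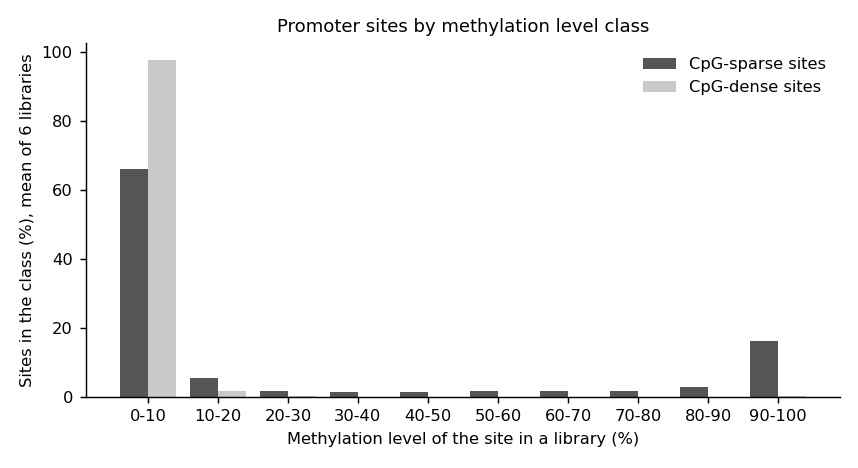
Share of promoter sites (%, y axis) in each class of 10 percentage points of methylation level (x axis), as the mean of 6 libraries, for 1644 CpG-sparse (dark bars) and 170704 CpG-dense (light bars) sites. The sparse sites have a second peak at 90 to 100%, with 16.1% of the sites against 0.154% of the dense sites.

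The mean level of the sparse sites was 25.5%, 24.8% and 24.9% in the Space replicates and 25.5%, 24.6% and 24.3% in the Ground replicates. At the dense sites it was 2.15%, 1.87% and 1.80% in Space and 2.17%, 1.79% and 1.64% in Ground. Every library thus had the higher mean at the sparse sites, and the groups overlapped at both kinds of site. The sparse minus dense difference was 23.0 ± 0.273 percentage points (SD, n = 6 libraries), ranging from 22.7 to 23.4 (exact sign-flip permutation test over libraries, two-sided, p = 0.0312, the smallest that 6 libraries allow). The share of sites over 80% differed by 18.4 ± 0.276 percentage points (SD, n = 6; exact sign-flip permutation p = 0.0312). With other limits the difference was 36.4 percentage points for sites with no other row, 10.1 for up to 5 other rows and 13.9 when only covered rows counted as neighbors, each with the same exact sign-flip permutation p. The median sparse site had a level of 3.48%, with quartiles of 1.79% and 41.4%, against a median of 1.48% at the dense sites.

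The mean level was lower with each further row from 0 to 5 other rows, and in the wider bins beyond. Sites with no other row within 100 bp (213 sites) had a mean level of 38.5%, sites with 1 other row (511 sites) had 26.9% and sites with 2 (920 sites) had 20.7%. Just outside the limit, sites with 3 other rows (1307 sites) had 12.7%, and the mean went down to 1.28% at sites with 21 or more. The high class went down with it, from 33.8% of the sites with no other row to 15.3% of those with 2, whereas the intermediate class was 9.39%, 12.7% and 7.28%. Libraries differed little in this respect, since the 6 means at sites with no other row lay between 37.7% and 39.2%, and those at sites with 2 lay between 20.1% and 21.3%.

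**Figure D2:**
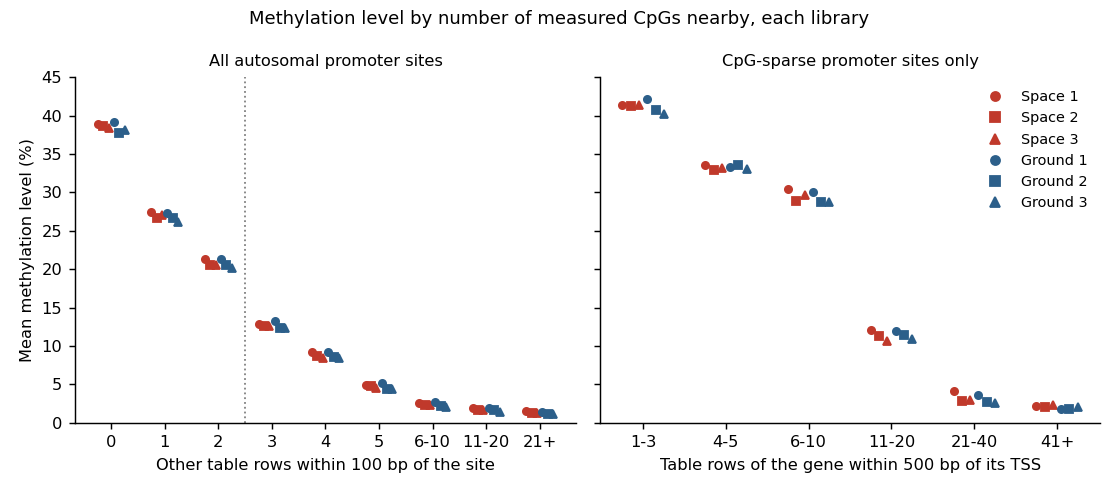
Mean methylation level (%) of each library against the number of other table rows within 100 bp for all autosomal promoter sites (left, the dotted line marks the limit of 2) and against the number of table rows of the gene within 500 bp of its TSS for the sparse sites only (right). Red symbols are Space and blue symbols are Ground libraries. The 6 libraries nearly coincide, from 38.5% with no other row to 1.28% with 21 or more on the left, and from 41.2% to 2.04% on the right.

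A wider window separated the sparse sites further. It counts the site itself and its neighbors of the same gene within 100 bp, so it is not independent of the rule. Where the gene had 1 to 3 rows within 500 bp of its TSS, the sparse sites (472 sites in 299 genes) had a mean level of 41.2% and 35.6% of them were high. With 21 to 40 rows (206 sites) the mean was 3.19% and 0 were high, and with 41 or more (68 sites) the mean was 2.04% and each site was low. The position relative to the TSS made less difference. The mean was 23.7% at the 756 sparse sites upstream of the TSS and 26% at the 888 sites at or downstream of it. In bins of 50 bp the mean ranged from 19% to 28.8%.

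Sparse sites were lower where the same promoter also held dense sites. Dense sites were also measured in 500 of the 1130 genes, and the 660 sparse sites of these genes had a mean level of 10.4%, against 34.7% at the 984 sparse sites of the 630 genes without dense sites. In the 500 genes the dense sites had 3.96%, which left a difference of 6.40 ± 0.179 percentage points (SD, n = 6 libraries; exact sign-flip permutation p = 0.0312, and 0.0312 after adjustment over 4 such comparisons). The median difference per gene was 0.267 percentage points. In 494 of the 500 genes the means of both kinds of site lay within 20 percentage points of each other, with both under 20% in 454 genes and both over 80% in 27 genes. No gene had sparse sites over 80% and dense sites under 20%. The 27 genes included *Atp4b*, a subunit of the gastric proton pump, with 98.0% at its sparse site and 94.7% at its dense sites, and *Musk*, the receptor kinase of the neuromuscular junction, with 94.8% and 97.7%. The genes of this paragraph were chosen after their values were seen. The genes with a gap of more than 20 percentage points were *Arhgap27os3* (85.8% sparse and 44.7% dense), *Prph2*, a photoreceptor protein gene (44.3% and 14.1%), *Gm47595* (96.8% and 69.0%), *Ccdc110* (26.6% and 3.53%), *Gm30262* (31.3% and 8.76%) and, in the other direction, *Rbbp8nl* (62.4% and 95.6%).

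Read depth moved with the level. Only 21.9% of the sparse promoter rows passed the read minimum, against 58.0% of the dense ones, and the lowest coverage of a site over the 6 libraries had a median of 21 reads at sparse and 24.0 reads at dense sites. Sparse sites with a lowest coverage of 10 to 19 reads (747 sites) had a mean level of 31.3%, those with 20 to 39 reads (650 sites) had 23.8% and those with 40 or more (247 sites) had 8.61%. The dense sites had 1.89%, 1.89% and 1.96% in the same classes. The sparse minus dense difference was 29.5 ± 0.415, 21.9 ± 0.173 and 6.65 ± 0.427 percentage points (SD, n = 6; each with an exact sign-flip permutation p of 0.0312), so it held its direction at every depth and was smaller at the deepest sites. At the edge of the read minimum, 284 sparse sites with 10 to 12 reads had 27.0% and 265 rows with 8 or 9 reads had 39.4%. At the edge of the distance limit, the mean was 19% at 76 sites in the last 10 bp inside it and 25.4% at 89 sites in the first 10 bp outside it, and the medians were 2.79% and 3.82%.

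**Figure D3:**
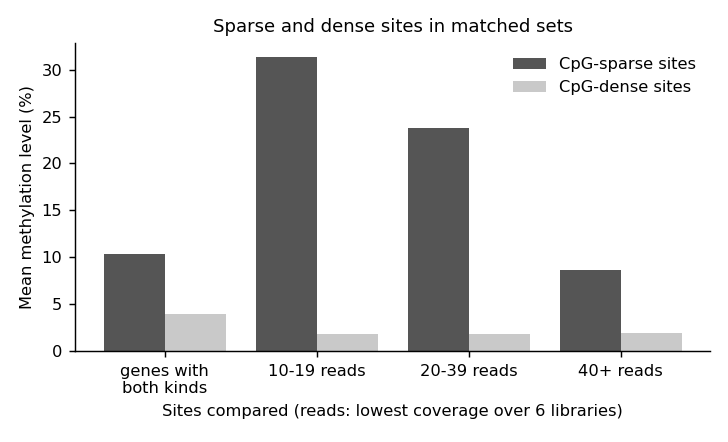
Mean methylation level (%, mean of 6 libraries) of CpG-sparse (dark bars) and CpG-dense (light bars) promoter sites within the 500 genes that have both kinds and within 3 classes of lowest read coverage. The sparse bar is the higher one in each set, by 6.40 percentage points over all sites of the shared genes, where the median gap per gene was 0.267, and by 6.65 at 40 or more reads.

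Sites of a gene mostly fell in the same class. A single sparse site was measured in 743 genes, 2 in 279 genes and 3 or more in 108 genes, and the largest number was 6. Of 387 genes with at least 2 sparse sites, 364 had all of them in 1 class. Neighboring sites are not separate measurements, because 298 (66.2%) of 450 consecutive sparse sites within 100 bp had the same coverage in all 6 libraries and were thus read together. *Stmn4*, a stathmin gene of neurons, and *Gng2*, a G protein subunit gene, had the most sites, and their 6 sites each had mean levels of 1.42% to 5.49% and 0% to 4.69%. In *Ticam1*, an adapter of Toll-like receptors, 5 sites had 2.09% to 3.84%.

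Both low and high sites were found in 2 genes. In *Gcsam*, a germinal center gene, the site 18 bp downstream of the TSS had 88.9%, 100% and 100% in Space and 95.2%, 94.1% and 92.3% in Ground. The site 53 bp downstream, covered by the same number of reads in 5 of 6 libraries, had 2.78% in Space replicate 1 and 0% in the other libraries. In *Cdsn*, the corneodesmosin gene of the epidermis, sites at 126 bp upstream and 63 bp downstream had mean levels of 98.2% and 94.6%, and the site at 86 bp downstream had 6.75%. The difference between neighboring sites was thus present in all 6 libraries of both genes, and its cause was not tested.

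The kind of gene differed between sparse and dense sites. By the GENCODE annotation of the gene identifier, 1054 sparse sites (64.1%) belonged to 718 protein-coding genes and 483 (29.4%) to 341 long noncoding RNA genes, against 87.3% and 9.16% of the dense sites. The long noncoding group had the higher level, with a mean of 36.2% and 30.6% of sites in the high class, against 18.8% and 12.9% in the protein-coding group. The 6 libraries ranged from 35.7% to 36.7% in the former and from 18.2% to 19.4% in the latter. The dense sites had means of 3.04% and 1.78% in the same kinds of gene, and the difference between gene types was not tested. Predicted genes with a Gm symbol held 442 of the sparse sites, at a mean of 36.7%.

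Gene families differed in level, beside shares of 71.8% low, 9.25% intermediate and 19% high over all sparse sites. All 42 sparse sites in 26 Zfp genes, most of which encode zinc finger proteins that bind DNA, were low, with a mean of 1.73%. Solute carrier genes, which move small molecules across membranes, had 30 of 33 sites in the low class and 0 in the high class (mean 7.73%). Keratin and keratin-associated genes of hair and skin had 3 low, 2 intermediate and 4 high sites (mean 52.0%), and the 3 sites in 2 olfactory receptor genes were intermediate or high (mean 82.0%). Cytochrome P450 genes had 2 low and 3 high sites. Among other families, serine protease genes had 1 low and 6 intermediate sites. Transmembrane (Tmem) genes had 6 low, 3 intermediate and 2 high sites. The dense sites of the Zfp and solute carrier genes were 100% and 99.7% low, against 99.6% of all dense sites. Those of the cytochrome P450, serine protease and Tmem genes were 97.9%, 98.5% and 99.6% low. The 51 dense sites of keratin and keratin-associated genes were 70.6% low, 23.5% intermediate and 5.88% high (mean 16.9%), so these genes stood out at dense sites too. Olfactory receptor genes had 1 dense site, at 33.0%. The families were chosen by symbol, and members of 1 gene share reads, so these counts describe the sites only.

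Of the 247 sparse sites with at least 40 reads in every library, 92.7% were low, 3.24% were intermediate and 4.05% were high. The deepest sites of each class were picked within the class, so they serve as examples only. In the low class these included *Gnb1l* (1.04%), *Fgd4*, an activator of the small GTPase Cdc42 (1.95%), *Zic5*, a transcription factor of the nervous system (4.49%), and *Pot1b*, a telomere protein (2.77%), each read at least 63 times in every library. In the high class they were *Arhgap40* (98.5%), *Kcnj15*, an inward rectifier potassium channel (91.4%), *Gprc5d*, a receptor of hair follicles and plasma cells (96.8%), *Tmem274* (97.5%) and *Krt82*, a hair keratin (81.6%), read at least 42 times. The intermediate class was led by *Tmem120b* (63.3%), 2 sites of *Cd2*, a T cell adhesion molecule (61.5% and 69.8%), *Gpx2*, a glutathione peroxidase of the gut (57.7%), and *Wnt8a*, a Wnt ligand (30.5%), read at least 45 times.

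Few sparse sites lay in genes of the marker lists, and no contrast between lists was tested. The counts stand beside the 71.8% of all sparse sites that were low. Of 55 spermatogonial genes, *Epcam* and *Pvr* had a sparse site, at 2.79% and 3.04%, and the 449 dense sites of this list had a mean of 1.42% with each of them low. *Piwil2*, which acts in piRNA production in germ cells, had 4.88%. The housekeeping genes *Gpi1* (1.92% and 0.641%) and *Polr2a* (4.09%), an enzyme of glycolysis and a subunit of RNA polymerase, were also low. The imprinted genes *H19* (3.31%), *Grb10* (7.24% and 6.04%) and *Impact* (1.14%) were low at these sites, which were not selected to lie in imprinting control regions. Among fibroblast genes, which the feeder cells would express, *Mmp2* had 0.667% and 0%, and the latter site allows up to 2.78% with its 108 reads. Among genes of testis somatic cells, both sites of *Gata4*, a transcription factor of Sertoli and Leydig cells, were high at 93.2% and 96.7%, whereas the 70 dense sites in 10 genes of this list had a mean of 6.63% with 0 in the high class. No sparse site was measured in the other genes of these 3 marker lists, so the lists bear on few genes here, and a methylation level is not an expression level.

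Sperm genes were split. *Catsper1*, a calcium channel subunit of the sperm tail, had 97.0% and 98.4% at its 2 sparse sites, and *Dcst2*, a sperm membrane protein gene, had 97.1%, 89.5% and 95% at 3. *Odf2*, of the outer dense fibers, *Tekt5*, a tektin, and *Actrt3*, an actin-related protein, had 1.11%, 2.19% and 2.41%. Of 15 sparse sites in 9 genes restricted to other tissues, 6 were low, 3 were intermediate and 6 were high. *Fgb* (fibrinogen of the liver; 99.2% and 92.8%), *Wap* (a milk protein; 94.4% and 98.5%) and *Gcg* (glucagon; 85.1%) were high. *Csn3* (casein; 73.9%) and *Nppb* (a natriuretic peptide of the heart; 40.8%) were intermediate, *Tnni3* (cardiac troponin) had 66.2% and 96.2%, and *Cck* (cholecystokinin; 9.26% to 12.8%), *Snap25* (1.47%) and *Apoe* (0.538% and 1.08%) were low.

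The comparison of Space with Ground asked whether storage in orbit left a mark on methylation. Over all sparse sites the mean level was 25% ± 0.415 in Space and 24.8% ± 0.606 in Ground (SD, n = 3 each). They were thus 0.231 percentage points apart, less than either SD (exact permutation test, two-sided, p = 0.5, with 0.1 the smallest p possible for 3 against 3). Leaving out Space replicate 1 gave -0.00706, leaving out Ground replicate 3 gave -0.0163 and leaving out Ground replicate 1 gave 0.569. With reads pooled over sites, which weights deep sites more, it was 0.832 (exact permutation p = 0.3). At the dense sites the difference was 0.0750 (exact permutation p = 0.7), and the sparse difference exceeded the dense one by 0.156 percentage points (exact permutation p = 0.5), less than the spread between replicates, and by 0.738 with reads pooled (exact permutation p = 0.3).

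Counts of sparse sites in 10 classes of level gave no adjusted p under 0.5. The lowest class, 0 to 10%, held 1055, 1085 and 1086 sparse sites in Space and 1068, 1111 and 1111 in Ground, a difference of -21.3 sites (exact permutation p = 0.3). The highest class, 90 to 100%, held 276, 265 and 271 in Space and 260, 252 and 261 in Ground. These last counts did not overlap, with 13 more sites in Space (exact permutation p = 0.1, and 0.5 after Benjamini-Hochberg adjustment over 10 classes). The neighboring class of 80 to 90% held 35, 46 and 34 sites in Space and 55, 58 and 46 in Ground, 14.7 fewer in Space (exact permutation p = 0.2, and 0.5 adjusted). The class of 50 to 60% did not overlap either, with 26, 18 and 21 sites in Space and 34, 28 and 27 in Ground (exact permutation p = 0.1, and 0.5 adjusted).

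**Figure D4:**
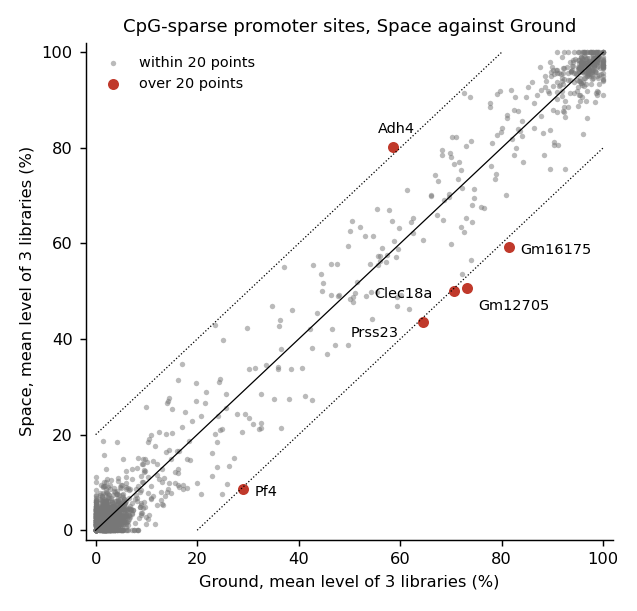
Mean methylation level (%) of 3 Space libraries (y axis) against that of 3 Ground libraries (x axis) at each of 1644 CpG-sparse promoter sites. The solid line marks equality and the dotted lines a difference of 20 percentage points, which 6 sites (red, named) exceeded, 1 above and 5 below.

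Most single sites differed little between the groups, but sparse sites differed more than dense sites or all 681804 sites. Of the sparse sites 83.9% stayed within 5 percentage points, against 97.0% of the dense and 90.9% of all sites. Their median gap, regardless of sign, was 1.96 percentage points, against 1.19 and 1.45. At mean levels of 5% to 95%, the shares within 5 percentage points were 54.5%, 64.6% and 56.7%. In Space 839 sparse sites were higher, 730 lower and 75 equal. The higher ones made up 53.5% of the unequal sites, against 51.7% for dense and 51.5% for all sites. The spread was widest at intermediate sites, where the median SD between replicates was 9.44 percentage points and the median absolute difference was 6.78, against 2.29 and 1.75 at low sites. At 10 reads, 1 read changes a level by 10 percentage points. A difference of more than 20 percentage points was found at 1 site that was higher in Space (0.0608% of the sparse sites, against 0.113% of the 681804 sites) and at 5 that were lower (0.304% against 0.0826%). All of them had a mean level of 5% to 95%. At such levels 1 and 5 of 448 sparse sites were higher and lower, against 770 and 563 of 92042 sites. Each of these 6 sparse sites had fewer than 20 reads in at least 1 library, and with a minimum of 20 reads 0 sites differed by as much. The counts depended on single libraries. The number higher in Space was 2, 5 and 5 without Space replicates 1, 2 and 3, and 7, 6 and 3 without Ground replicates 1, 2 and 3. Leaving out Space replicate 2, or Ground replicate 1, brought the number lower in Space to 2.

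The site higher in Space lay 183 bp downstream of the TSS of *Adh4* (ENSMUSG00000037797, chromosome 3, position 138121410 in mm39), an alcohol dehydrogenase gene. It had 78.6%, 89.5% and 72.2% in Space and 63.6%, 65.2% and 46.7% in Ground, at 15 to 38 reads. The groups did not overlap, and the difference was 21.6 percentage points (80.1% ± 8.73 against 58.5% ± 10.3; SD, n = 3 each; quasi-binomial model with dispersion moderated by limma, unadjusted p = 0.0115 and adjusted p = 0.8). The largest difference without overlap was at *Gm16175* (ENSMUSG00000087206, a long noncoding RNA gene on chromosome 7, position 19543390, 144 bp upstream), with 61.8%, 46.2% and 69.6% in Space and 89.5%, 76.2% and 78.9% in Ground. *Prss23* (ENSMUSG00000039405, a serine protease gene on chromosome 7, position 89176519, 124 bp upstream) had 47.6%, 45.5% and 37.5% in Space and 66.7%, 53.3% and 73.3% in Ground. In both the Space replicates lay below the Ground replicates, by 22.4 and 20.9 percentage points in the mean. Their adjusted p was 0.843 and 0.914 in the same limma-moderated test. At the other sites past 20 percentage points, in *Gm12705*, *Clec18a*, a C-type lectin gene, and *Pf4*, the platelet factor 4 gene, the replicates of the groups overlapped and the means were 22.6, 20.5 and 20.5 percentage points apart.

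Other sites without overlap differed by less. *Mab21l1* (ENSMUSG00000056947, chromosome 3, position 55689810, 121 bp upstream), a gene of eye development, had the smallest p of the sparse sites, and no other row lay within 100 bp. It had 37.7%, 19.5% and 20% in Space and 4.65%, 17.5% and 7.32% in Ground, at 41 to 57 reads. The groups lay next to each other without overlap and differed by 15.9 percentage points (limma-moderated test, unadjusted p = 0.00286 and adjusted p = 0.792). *Tspan12* (ENSMUSG00000029669, chromosome 6, position 21852656), a tetraspanin of retinal vessel signaling, had 0%, 12% and 10.5% in Space and 29.4%, 20% and 25% in Ground, 17.3 percentage points lower in Space (adjusted p = 0.798 in the same test with limma). *D030046N08Rik* (ENSMUSG00000089760, chromosome 18, position 84738884) had 31.2%, 4.76% and 20% in Space and 0%, 4.35% and 0% in Ground. *4933435F18Rik* (ENSMUSG00000086978, chromosome 4, position 124226138), the other noncoding gene among the 5 smallest p, had 8.16%, 14.9% and 9.26% in Space and 1.89%, 2.17% and 2.56% in Ground. In both the Space replicates were the higher ones, and the adjusted p was 0.792 and 0.798 in the same test with limma. At *D030046N08Rik* the separation rested on Space replicate 2 (4.76% of 21 reads) and Ground replicate 2 (4.35% of 23 reads). With reads summed over the 3 sparse sites of this gene the groups overlapped, at 18.8%, 1.59% and 9.33% in Space and 2.38%, 1.45% and 0% in Ground. The summed reads of the 2 sites of *4933435F18Rik* did not overlap between the groups.

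**Figure D5:**
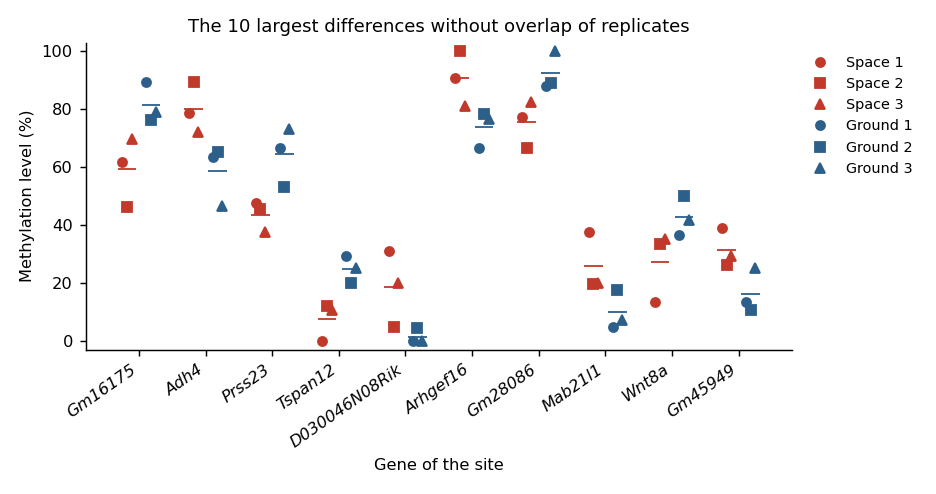
Methylation level (%, y axis) in each library at the 10 CpG-sparse promoter sites with the largest Space minus Ground difference among those whose replicates did not overlap, named by gene (x axis). Red symbols are Space, blue symbols are Ground, and the lines are group means. At *Gm16175* the Space mean is 22.4 percentage points lower and at *Adh4* it is 21.6 higher.

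None of these sites passed the test over the whole table. Of the sparse sites, 448 had a mean level of 5% to 95% and were tested together with all such sites (92042 in total). Of the 448, 20 (4.46%) had an unadjusted p under 0.05, against 5.61% of the 92042 sites. At an adjusted p under 0.05, 0 sparse sites and 0% of the 92042 sites were called by that limma-moderated test. edgeR called 0 sparse sites, with 15 (3.35%) at an unadjusted p under 0.05 against 4.03% of all tested sites. With limma on log2 ratios 0 were called, with 18 (4.02%) against 4.66%. Space and Ground replicates were fully separate, with Space higher, at 21 of these 448 (4.69%, against 4.94% of the 92042) and, with Space lower, at 22 (4.91%, against 4.13%).

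Summed over the gene, the reads gave the same answer. Reads of all sites within 200 bp of the TSS, sparse and dense, were added for each gene, and 288 of the 536 tested genes had a sparse site. Of the 288, 8 (2.78%) had an unadjusted p under 0.05, against 3.54% of the 536 genes, and 0 had an adjusted p under 0.05, as did 0% of the 536 (quasi-binomial model, dispersion moderated by limma). edgeR called 0 of them, with 7 (2.43%) at an unadjusted p under 0.05 against 2.43% of the 536. With limma on log2 ratios 0 of them were called, with 14 (4.86%) against 5.04%, and 1 of the 536 genes was called, which had no sparse site. The smallest p was that of *Fcamr*, an Fc receptor gene with 4 sites of which 2 were sparse, named here after its values were seen, at 57.7%, 50% and 57.6% in Space and 75%, 76.4% and 77.1% in Ground. With the reads of all 4 sites summed, its Space replicates lay below its Ground replicates by 21 percentage points in the mean (unadjusted p = 0.00376 and adjusted p = 0.504 with limma's moderation). At each of the 2 sparse sites alone, read 12 to 16 times per library, the replicates of the groups overlapped. The Space minus Ground differences there were -18.6 and -12.4 percentage points.

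Replicates of a group were at times farther apart than the groups. At *Tnfrsf13b*, a B cell receptor gene of the tumor necrosis factor family, Ground had 50%, 88.9% and 96.8% and Space had 70.2%, 74.4% and 75.7%, at 24 to 57 reads. At the long noncoding RNA gene *A530020G20Rik* Space had 73.9%, 57.1% and 35.3% and Ground had 43.3%, 43.9% and 41%. These were the widest ranges within a group among sites with at least 20 reads in every library. Over the tested sparse sites, the chi-square statistic between 2 libraries divided by its degrees of freedom, which would be 1 for read sampling alone, was 1.17 to 1.44 within the groups and 1.25 to 1.49 between them.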

How the data were processed

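GS cells stored in Space and on the Ground (3 libraries each) were assayed by RRBS. Per the submitters' processing notes, Trim Galore, Bismark 0.24.2 and methylKit were used with mm39. The authors deposited a single table with the read count and the methylation percent of each CpG site in every library and its closest TSS. The annotation behind the TSS is not given in the sources used here. The product of coverage and percent gave the methylated reads, at most 0.000266 away from a whole number. Libraries held 28535973 to 33743845 reads over all sites, and 49348 to 57597 reads at the CpG-sparse promoter sites.

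Levels were averaged per site with equal weight. Sites and genes with a mean level of 5% to 95% were tested with a quasi-binomial model whose dispersion was moderated by limma 3.58.1 (R 4.3.3), and p-values were adjusted over all tested sites or genes (Benjamini-Hochberg). The alternatives were edgeR 4.0.16 and limma on log2 ratios with 2 added to the counts. Group means were compared by exact permutation, and kinds of site by exact sign flips over libraries, both two-sided. Files were read with version 1.17.8 of data.table, and values were computed with Python 3.11.15, pandas 2.3.3 and numpy 2.4.6, and plots were drawn with matplotlib 3.10.9. The scripts were tested on simulated data.

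Gene types were matched by identifier to GENCODE M21, and promoter sequences by symbol to RefSeq. Coordinates of sites are in mm39 and those of promoters in GRCm38.p6, and none were converted. Named sites were the 10 largest differences without overlap, the 5 smallest p, the 5 deepest of each class, sites of genes in the lists, the 3 genes with most sites, genes with low and high sites, and the 5 widest replicate ranges. Lists with more than 6 sites were given whole. A site that this rule named is not reported here. The members and lists were chosen with earlier results of these data known.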

Additional observations from a re-analysis of the deposited data

How the results depend on the processing

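Of 145 alternative values for 13 results, 97 stayed the same, 40 moved, 6 missed the threshold and 2 changed sign. Tested differences were the same when they kept their direction and side of the threshold. For the Space minus Ground means and class counts, the smallest possible exact permutation p was 0.1 or more. These could thus never pass 0.05 and could change only in direction. They gave 15 of the 97 same values for the mean level and 17 for the sparse against dense contrast of that difference. The lowest and highest level classes gave 7 each. Counts, including those of called sites and genes, were the same within a fixed factor of the main value. Class shares were the same inside its binomial interval, which treats sites as independent. The cause of a change was not tested unless given. The Space minus Ground mean level was -0.00706 without Space replicate 1 and ranged from -0.0163 to 0.569 when each replicate was left out. The sparse minus dense difference ranged from 23.0 to 23.1 without each library in turn, chosen after seeing the data, with an exact sign-flip p of 0.0625, the smallest that 5 libraries allow. It was 26.6 at 5 reads and 17.7 at 20 reads, and 10.1 to 36.4 with other neighbor limits. The number of sites more than 20 percentage points higher or lower in Space ranged from 2 to 7 and from 2 to 7 without each replicate. Other limits change the set of sites, which held 1644 in the main setting. The numbers were 14 and 14 of 2484 sites with a minimum of 5 reads, and 0 and 0 of 897 with 20 reads. They were 0 and 1 of 213 sites with no other row, and 8 and 9 of 7233 with up to 5 other rows. Within 100 bp of the TSS they were 0 and 1 of 851 sites, and within 1000 bp 26 and 18 of 6998. When only covered rows counted as neighbors, 4 of 4067 sites were higher and 5 lower. The shares over all covered sites under these limits were not computed. The low and high shares were 67.3% and 22.5% at 5 reads, and 56.8% and 33.8% with no other row. The low, intermediate and high shares were 78.9%, 6.69% and 14.4% at 20 reads, 87.6%, 4.78% and 7.59% with up to 5 other rows, 83.0%, 6.00% and 11% with covered neighbors only, and 67.8%, 15.9% and 16.2% with class limits of 10% and 90%. The high share was 16.8% within 1000 bp. The mean level with no other row exceeded that with 2 by 17.8 percentage points, and by 16.4 at 5 reads and 19.8 at 20 reads, both chosen after seeing the data. Site and gene tests called 0 sparse sites and 0 of their genes under all alternatives run. At 10 reads a count of 0 allows a level of up to 30.0%.

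Same-numbered Space and Ground samples correlated by 0.00988 to 0.0438 in their deviations, under the 0.1 set for pairing. Each sample but Space replicate 3 correlated best with its own number, and library codes of same-numbered samples are consecutive in the labels, which do not say what that marks. Whether they share more than a number was not settled. With the replicate block the mean difference stayed at 0.231 (exact permutation p = 0.25, the smallest that 3 pairs allow), and 0 sites were called by the limma-moderated test with 16 (3.57%) at an unadjusted p under 0.05, against 5.98% of all tested sites.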
